A study of Rattus norvegicus with 9 samples.

Results

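The 10 genes described here were grouped as feedback targets of canonical Wnt signalling, a name that suits Dkk3 less well than the other 9, and were measured by RNA-seq in differentiating neural stem cells (NSCs). They were taken by name as 10 of the 23953 genes of the count table, by a rule that sets no threshold on measured values but was written with earlier results of these data known: Axin2, Nkd1, Rnf43, Znrf3, Lgr5, Tcf7, Tcf7l2, Lef1, Sp5, and Dkk3. All 10 were in the table, and 8 of them carried the KEGG Wnt signaling pathway in its annotation, the exceptions being Sp5 and Dkk3.

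The NSCs are described as cells from the spinal cord of newborn rats, and all were kept in the same differentiation medium. The Con group received this medium alone, the Exo group received in addition exosomes of rat bone marrow mesenchymal stem cells (BMSCs) that carried an empty lentiviral vector according to the study's methods, and the pLV-Exo-Wnt5a group received exosomes of BMSCs made to overexpress rat Wnt5a by lentivirus. Each group had 3 libraries. Wnt5a was thus raised in the donor cells and not in the sequenced cells, and no group received exosomes of BMSCs without any vector. Nothing in the labels says that the 3 libraries came from separate cultures or animals, so every p-value below measures only the spread between these libraries, which may be technical.

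In canonical signalling, a Wnt ligand on Frizzled and LRP receptors stops the Axin and APC complex from destroying beta-catenin, which then enters the nucleus and works with TCF and LEF factors. Several of the genes it switches on hold the signal down again: Axin2 rebuilds the destruction complex, Nkd1 acts on Dishevelled, and the ubiquitin ligases Rnf43 and Znrf3 remove Frizzled from the cell surface. For this reason their transcripts, Axin2 first among them, are commonly read as a gauge of beta-catenin activity, which in neural stem cells is known for its effects on proliferation and neuronal differentiation. Wnt5a itself is mostly known for signalling that does not pass through beta-catenin.

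Total counts were between 32765138 and 40427647 per library. Values are counts scaled to a fixed library size (CPM) after TMM normalization over all 9 libraries, in which 3 counts, the most that a count of 0 allows for counting error alone, correspond to between 0.0742 and 0.0916 CPM. Libraries of the same group differed beyond sampling noise in all 3 groups, most between Con replicates 1 and 3, and all 9 libraries carried 1 batch label. Markers of neural stem cells, neurons and astrocytes were present in every library, whereas the 12 genes of the Hox clusters in the table, which spinal cord cells normally keep on, summed to between 0.0257 and 0.606 CPM. Genes of the developing forebrain were present in every library, with Lhx2 at 157 to 187 CPM, Otx1 at 23.1 to 31.0, Six3 at 22.9 to 28, Emx2 at 20.4 to 27.0, and Emx1 at 10.1 to 16.6. The genes of the table carried mouse gene numbers although the cells are described as rat, and which genome the reads were aligned to is not given in the sources used here. As these are bulk samples, fewer cells of a type and less of an RNA in each cell cannot be told apart behind a lower value.

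To show what the control regions of these genes hold, RefSeq promoters of the rat assembly GRCr8 were searched for the letters that TCF and LEF factors are known to favour. Promoters were given for 7 of the 10 genes, each reaching from 250 bases before the start site to 50 after it. On both strands, CTTTGAT was found in 4 of these 7 (Axin2, Nkd1, Tcf7, and Sp5) and in 3.63% of all 33469 promoters of the same length. With CTTTGAA, then CTTTGTT, and lastly CTTTGTA also searched, the same 4 held at least 1 of these spellings, as did 17.1% of all promoters. The 4 promoters are printed because they carry these letters, written 5′ to 3′ on the strand of the gene with the matches in capitals. They are Axin2 at chr10:94398535-94398784 (plus strand), Nkd1 at chr19:34722847-34723096 (minus strand), Tcf7 at chr10:36954260-36954529 (minus strand), and Sp5 at chr3:75682427-75682676 (plus strand).
Axin2: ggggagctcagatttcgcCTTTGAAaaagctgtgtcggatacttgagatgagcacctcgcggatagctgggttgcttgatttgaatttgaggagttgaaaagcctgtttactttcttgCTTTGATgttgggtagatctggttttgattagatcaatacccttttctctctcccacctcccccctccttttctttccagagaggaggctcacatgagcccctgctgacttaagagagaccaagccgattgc
Nkd1: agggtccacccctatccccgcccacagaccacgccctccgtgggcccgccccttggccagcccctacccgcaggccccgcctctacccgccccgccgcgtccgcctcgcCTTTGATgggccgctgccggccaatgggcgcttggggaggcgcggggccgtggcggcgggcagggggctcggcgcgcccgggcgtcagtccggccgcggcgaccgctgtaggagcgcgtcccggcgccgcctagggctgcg
Tcf7: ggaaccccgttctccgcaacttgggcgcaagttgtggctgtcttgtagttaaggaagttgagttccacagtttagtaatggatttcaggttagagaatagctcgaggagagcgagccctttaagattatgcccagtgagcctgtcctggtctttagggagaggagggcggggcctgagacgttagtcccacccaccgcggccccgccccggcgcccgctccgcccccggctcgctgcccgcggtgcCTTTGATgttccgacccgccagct
Sp5: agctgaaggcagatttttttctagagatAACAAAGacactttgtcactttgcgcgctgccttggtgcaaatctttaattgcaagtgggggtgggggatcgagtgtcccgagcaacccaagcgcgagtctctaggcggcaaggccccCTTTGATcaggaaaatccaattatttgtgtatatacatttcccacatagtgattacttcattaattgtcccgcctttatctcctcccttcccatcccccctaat
In Axin2 the matches began 232 and 132 bases before the start site, with CTTTGAA first and CTTTGAT second, and in Nkd1 the match began 141 bases before it. In Tcf7 the match began 4 bases before the start site and ran across it, so 20 bases after the start are printed for this gene. In Sp5 the first match, CTTTGTT on the opposite strand, reads AACAAAG and began 222 bases before the start site, and CTTTGAT began 104 bases before it. The 3 other promoters given, those of Tcf7l2, Lef1, and Rnf43, held none of these letters in this window. A match is a description of letters and does not show that a factor binds there.

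Compared with the Con group, the Exo group had a lower Dkk3 (0.712-fold) and a higher Tcf7l2 and Tcf7 at an unadjusted p under 0.05, none of which passed the adjustment for all genes, while Axin2, Nkd1, Rnf43, Znrf3, and Lgr5 overlapped between the groups. The groups were compared with edgeR's quasi-likelihood test on 6 libraries, with Benjamini-Hochberg adjustment over all genes tested (Q), and genes with Q under 0.05 were taken as DEGs. Of the 10 members, 8 passed the filter on low counts in every comparison, and Lef1 and Sp5 did not. Between the Exo and Con groups, 0 of the 8 were DEGs, against 0.00664% of the 15070 genes tested, which is 1 gene. DESeq2 gave 1 of 8, and 211 genes in all. At an unadjusted p under 0.05 there were 3 of 8, against 14.9% of all genes, with Tcf7l2 and Tcf7 higher (8.92% of all genes) and Dkk3 lower (6.01%). The 3 Exo values lay apart from the 3 Con values for the same 3 members, against 23.3% of all genes (10.8% higher and 12.4% lower). The median log2 fold change (log2FC) of the 8 was 0.079, against 0.002 over all genes.

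Relative to the Exo group, Dkk3 was upregulated in the pLV-Exo-Wnt5a group and was the only one of the 8 members taken as a DEG, against 0.436% of the 15132 genes tested. Axin2 was also higher, and Tcf7l2 and Rnf43 were lower, at an unadjusted p only. Together 4 of 8 had an unadjusted p under 0.05, against 12% of all genes (5.07% higher and 6.91% lower). These were also the 4 whose groups did not overlap, against 16.5% of all genes (7.90% higher and 8.57% lower). The median log2FC was -0.146 over the 8 members and 0.005 over all genes, with 2 members higher and 6 lower. With the study's second criterion, a fold change above 2 or below 0.5, 0 of the 8 remained in this comparison, because the change of Dkk3 was 1.38-fold.

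Relative to the Con group, 0 of the 8 members were DEGs in pLV-Exo-Wnt5a, against 0.0862% of the 15089 genes tested, and DESeq2 also gave 0. Rnf43 was lower at an unadjusted p under 0.05, which makes 1 of 8 against 8.35% of all genes (4.20% higher and 4.15% lower). The groups lay apart for Rnf43, which was lower, and for Lgr5, which was higher, against 16.6% of all genes (9.09% lower and 7.52% higher). The median log2FC was 0.071 over the members and 0.004 over all genes. The 3 comparisons share their libraries in pairs, so the Exo values enter both of the first 2, and a low or high Exo value moves both in opposite directions.

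**Figure D1:**
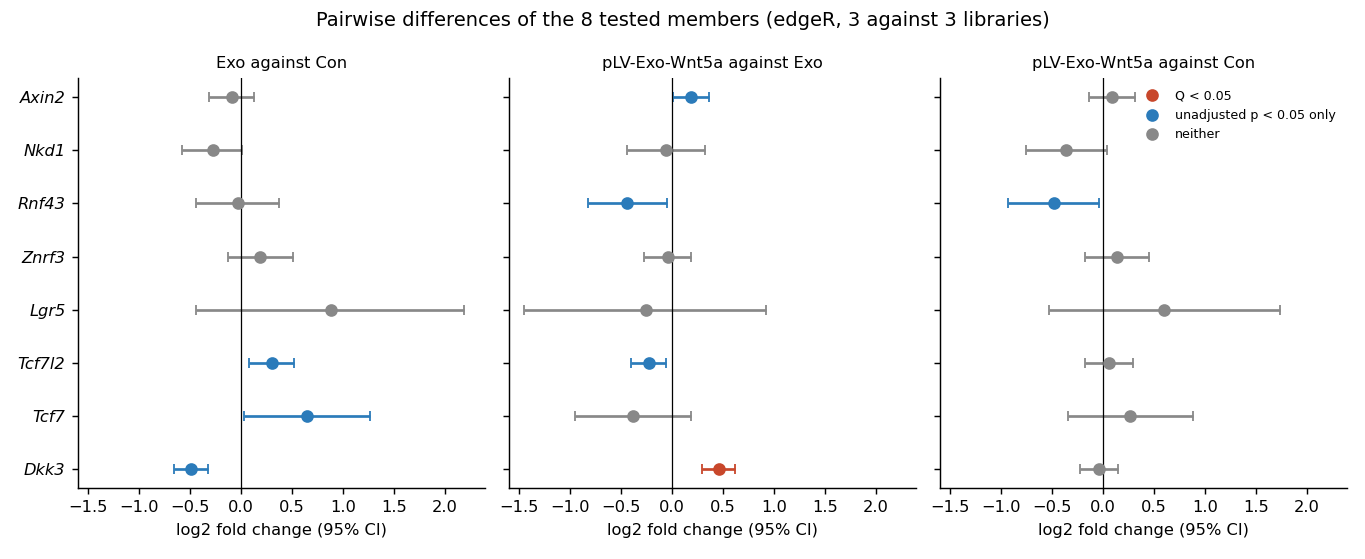
Log2 fold changes of the 8 tested members with 95% confidence intervals from edgeR, 1 panel for each comparison of 3 against 3 libraries, coloured by whether Q or only the unadjusted p was under 0.05. Dkk3 against Exo, at 0.46, is the only red point, and the intervals of Lgr5 are the widest.

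Axin2, the scaffold that rebuilds the destruction complex (NCBI gene number 12006), varied little. It was measured at 30.2, 30.8, and 33.2 CPM in the Con libraries, at 30.4, 28.4, and 29.6 CPM in the Exo libraries, and at 32.8, 32.1, and 35.1 CPM in the pLV-Exo-Wnt5a libraries. All 3 pLV-Exo-Wnt5a values lay above all 3 Exo values, whereas the Con values overlapped both other groups. The mean of the pLV-Exo-Wnt5a group, 33.3 ± 1.54 CPM (SD, n = 3), was 1.14-fold that of the Exo group, 29.5 ± 0.986 CPM (SD, n = 3). Its log2FC was 0.19 (95% confidence interval 0.01 to 0.36, unadjusted p = 0.0362, Q = 0.376 from edgeR's quasi-likelihood test), which did not pass the adjustment. Over 12 other settings the unadjusted p of this difference was under 0.05 in 6 and not in the other 6, which were no filter, the edgeR fit of the 9 libraries, and dropping Exo library 2 or 3 or pLV-Exo-Wnt5a library 1 or 3. Against the Con group the log2FC of the pLV-Exo-Wnt5a group was 0.09, with an interval from -0.14 to 0.31, and that of the Exo group was -0.09, with an interval from -0.31 to 0.13. Changes within these intervals were not detectable with 3 libraries a group. Some marker sums, given below with their limits, also had their lowest mean in Exo and their highest in pLV-Exo-Wnt5a. In Con, Exo, and pLV-Exo-Wnt5a these means were 38.4, 36.2, and 54.8 CPM for ependymal and choroid plexus markers and 5390, 4930, and 6710 CPM for astrocyte markers. For neural stem and progenitor markers they were 3280, 2880, and 3600 CPM. The part of such cells in the values of Axin2 was not tested.

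Nkd1, the Dishevelled-binding inhibitor (NCBI gene number 93960), was highest in the Con group but with overlap. Its values were 22.6, 20.3, and 17.6 CPM in the Con libraries, 16.8, 15.0, and 17.8 CPM in the Exo libraries, and 15.5, 11.7, and 20 CPM in the pLV-Exo-Wnt5a libraries. Con replicate 3 lay within the range of both other groups, and pLV-Exo-Wnt5a replicate 2 was the lowest of all 9. The log2FC was -0.28 (standard error 0.13, Q = 0.341, edgeR) for Exo against Con and -0.36 (standard error 0.18, Q = 0.636, edgeR) for pLV-Exo-Wnt5a against Con. Dropping library 2 of the pLV-Exo-Wnt5a group moved the latter to -0.177, and dropping its library 3 moved it to -0.566. For pLV-Exo-Wnt5a relative to Exo the value was -0.06, with an interval from -0.44 to 0.32.

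Rnf43 and Znrf3 encode related ligases that clear Frizzled receptors, and of these Rnf43 was lowest in the pLV-Exo-Wnt5a group. Rnf43 (NCBI gene number 207742) was measured at 3.67, 4.54, and 4.24 CPM in the Con libraries, at 4.13, 3.95, and 4.09 CPM in the Exo libraries, and at 2.78, 2.95, and 3.17 CPM in the pLV-Exo-Wnt5a libraries. The 3 pLV-Exo-Wnt5a libraries were the 3 lowest of the 9, and the Con and Exo groups overlapped. It averaged 2.97 ± 0.199 CPM with pLV-Exo-Wnt5a, 4.06 ± 0.0958 CPM with Exo, and 4.15 ± 0.446 CPM in Con (SD, n = 3 each). The log2FC of the pLV-Exo-Wnt5a group was -0.44 against Exo (unadjusted p = 0.0289, Q = 0.351, edgeR) and -0.48 against Con (unadjusted p = 0.0364, Q = 0.585, edgeR). Neither passed the adjustment, and the counts behind them were between 108 and 177 per library. Over 12 other settings the unadjusted p was under 0.05 in 8 against Exo and in 6 against Con. Markers of oligodendrocyte precursors were also lowest in the pLV-Exo-Wnt5a group in mean. The 6 markers summed to 2230 to 2550 CPM with pLV-Exo-Wnt5a, below the 2580 to 2900 CPM of Con and overlapping the 2480 to 2790 CPM of Exo. Of these, 5 were lower than in Exo (2 at an unadjusted p under 0.05, Cspg4 and Gpr17) and 5 were lower than in Con (3, Cspg4, Sox10, and Gpr17), and 0 were higher at that p. Their part in the values of Rnf43 was not tested.

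Znrf3 (NCBI gene number 407821) lay at 12.1, 13.2, and 15.9 CPM in the Con libraries, at 16.9, 14.5, and 15.6 CPM in the Exo libraries, and at 15.7, 14.1, and 15.6 CPM in the pLV-Exo-Wnt5a libraries. All 3 groups overlapped, with Con replicates 1 and 2 lowest. The log2FC was 0.19 for Exo against Con (interval -0.13 to 0.51), -0.04 for pLV-Exo-Wnt5a against Exo (interval -0.28 to 0.19), and 0.14 for pLV-Exo-Wnt5a against Con (interval -0.18 to 0.45).

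Lgr5, a receptor for R-spondins that marks stem cells in several tissues (NCBI gene number 14160), was close to the limit of the depth. It had 6, 12, and 10 counts in the Con libraries, 25, 7, and 24 counts in the Exo libraries, and 13, 14, and 19 counts in the pLV-Exo-Wnt5a libraries. Exo replicate 2 lay within the Con range while the other Exo libraries were the highest of the 9, and the 3 pLV-Exo-Wnt5a libraries lay above the 3 Con libraries. The log2FC was 0.88 for Exo against Con, with an interval from -0.44 to 2.19 (Q = 0.469, edgeR), and 0.60 for pLV-Exo-Wnt5a against Con, with an interval from -0.53 to 1.74 (Q = 0.758, edgeR). At this depth a 2-fold rise in Lgr5 lay inside both intervals.

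The TCF and LEF genes, which encode the DNA-binding partners of beta-catenin, share a similar DNA-binding domain, and how reads common to them were counted is not given, so their values are uncertain to that extent. Tcf7l2 (NCBI gene number 21416) had 39.3, 33.4, and 34.4 CPM in the Con libraries, 44.9, 45.3, and 41.5 CPM in the Exo libraries, and 36.8, 35.3, and 39.5 CPM in the pLV-Exo-Wnt5a libraries. The 3 Exo libraries were the 3 highest of the 9, and the other groups overlapped. Exo against Con gave a log2FC of 0.30 (standard error 0.10, unadjusted p = 0.0126, Q = 0.271, edgeR). The pLV-Exo-Wnt5a group against Exo gave -0.23 (standard error 0.08, unadjusted p = 0.0124, Q = 0.259, edgeR), and against Con 0.06 (interval -0.18 to 0.29). Neither of the first 2 differences passed the adjustment.

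Tcf7 (NCBI gene number 21414) had 1.66, 1.21, and 1.54 CPM in the Con libraries, 2.68, 1.69, and 2.55 CPM in the Exo libraries, and 1.82, 1.58, and 1.89 CPM in the pLV-Exo-Wnt5a libraries. The Exo values lay above all Con values, by a small margin in Exo replicate 2, and the pLV-Exo-Wnt5a values overlapped both groups. Its log2FC was 0.65 for Exo against Con (interval 0.03 to 1.27, unadjusted p = 0.0421, Q = 0.321, edgeR) and -0.38 for pLV-Exo-Wnt5a against Exo (interval -0.95 to 0.19). The first of these had an unadjusted p under 0.05 in 7 of 12 other settings, and the same comparison of Tcf7l2 in 10 of 12. Axin2 and Nkd1, whose promoters hold the same letters, had log2FC values of -0.09 and -0.28 for Exo against Con, as given above. The part of these letters in the values was not tested.

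Lef1 and Sp5, which beta-catenin induces in many tissues, were barely detected. Lef1 (NCBI gene number 16842) had 2, 4, and 7 counts in the Con libraries, 3, 0, and 2 counts in the Exo libraries, and 2, 2, and 3 counts in the pLV-Exo-Wnt5a libraries. Sp5 (NCBI gene number 64406), a zinc finger factor that represses other Wnt targets, had 2, 4, and 1 counts in the Con libraries, 8, 1, and 4 counts in the Exo libraries, and 2, 0, and 1 counts in the pLV-Exo-Wnt5a libraries. Most of these values were at or below 3 counts, so no fold change is given, and differences between the groups were not detectable at this depth. The promoter of Sp5 printed above, with its matches, thus belongs to a gene with at most 8 counts in any library.

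**Figure D2:**
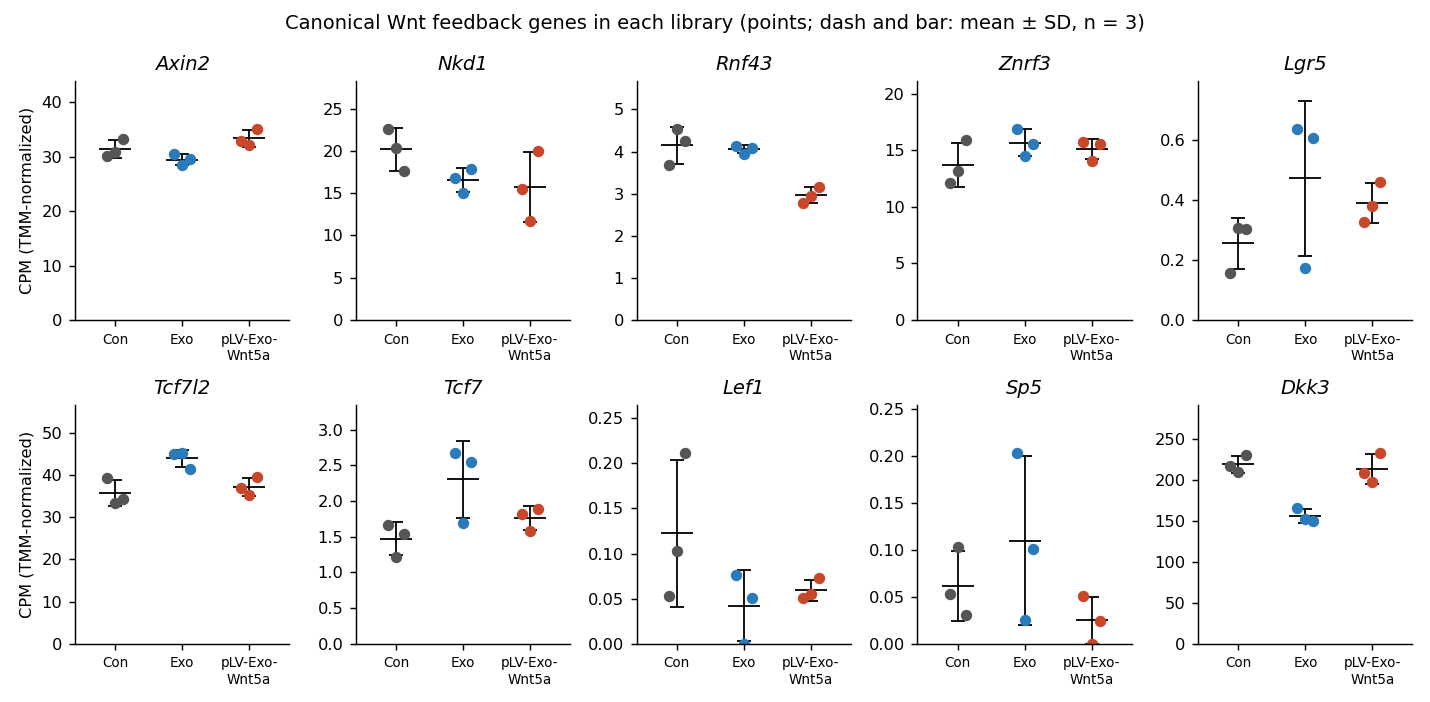
CPM of each of the 10 genes in the 9 libraries (points, in the order of the replicates) with the mean and SD of each group (n = 3), each panel with its own axis from 0. The Exo points lie lowest for Dkk3 and highest for Tcf7l2, and the pLV-Exo-Wnt5a points lie lowest for Rnf43, while Lef1 and Sp5 stay under 0.25 CPM.

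Dkk3 (NCBI gene number 50781) had the smallest p of the 8 tested members in both comparisons with the Exo group. It encodes a secreted protein of the dickkopf family whose own action on canonical signalling is less settled than that of Dkk1, and it is not known as a general beta-catenin target. It was measured at 217, 209, and 230 CPM in the Con libraries, at 165, 152, and 150 CPM in the Exo libraries, and at 208, 197, and 233 CPM in the pLV-Exo-Wnt5a libraries. The 3 Exo libraries lay below the other 6, and the Con and pLV-Exo-Wnt5a groups overlapped.

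Dkk3 averaged 219 ± 11 CPM in Con, 156 ± 8.39 CPM with Exo, and 212 ± 18.5 CPM with pLV-Exo-Wnt5a (SD, n = 3 each). Exo against Con gave a log2FC of -0.49 (standard error 0.08, unadjusted p = 7.07e-05, Q = 0.106, edgeR), a level of 0.712-fold that did not pass the adjustment, with 0.07% of the genes tested at an equal or smaller p. The pLV-Exo-Wnt5a group against Exo gave 0.46 (standard error 0.07, unadjusted p = 7.33e-05, Q = 0.0246, edgeR), and all 3 of its libraries lay above all 3 Exo libraries. Against Con the pLV-Exo-Wnt5a group differed by -0.04, with an interval from -0.23 to 0.15. Over 12 other settings the log2FC of Exo against Con stayed between -0.53 and -0.45 while Q ran from 0.000808 to 0.518 and was under 0.05 in 4, among them DESeq2 with 0.000808 and the fits without Con replicate 1 (0.035) or Con replicate 3 (0.0359). In the comparison of pLV-Exo-Wnt5a with Exo, Q was under 0.05 in 8 of 12 settings and above it without Exo replicate 2 (0.209), Exo replicate 3 (0.0599), pLV-Exo-Wnt5a replicate 1 (0.0868), or pLV-Exo-Wnt5a replicate 3 (0.0596).

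Markers of microglia were lowest in the Exo group in sum, as Dkk3 was. The 8 microglia and macrophage markers, all in the table and none at 0 in all 9 libraries, summed to between 7.83 and 9.66 CPM in Con, between 3.01 and 3.99 CPM with Exo, and between 7.41 and 9.90 CPM with pLV-Exo-Wnt5a. Of the 5 tested, 5 were lower in Exo than in Con (3 at an unadjusted p under 0.05) and 5 were higher in pLV-Exo-Wnt5a than in Exo (3 at an unadjusted p under 0.05). These 5 did not move alike. Aif1 was nearly flat, with log2FC values of -0.02 and 0.13, whereas Csf1r had -1.59 (Q = 0.265, edgeR) and 1.88 (Q = 0.064, edgeR). Unlike Dkk3, Cx3cr1 was lower than in Con both in Exo (-2.04, Q = 0.265, edgeR) and in pLV-Exo-Wnt5a (-1.40, Q = 0.524, edgeR). C1qa, a complement gene of microglia, had a log2FC of -1.43 (Q = 0.137, edgeR) in the first comparison and 1.29 (Q = 0.0765, edgeR) in the second. Ptprc, the pan-leukocyte antigen, had at most 6 counts in any library, P2ry12 and Tmem119, defining genes of microglia, had at most 12 and 14, and C1qa had between 49 and 170. The differentiating and mature oligodendrocyte markers summed to 981 to 1020 CPM with Exo, below the 1080 to 1280 CPM of Con, and to 978 to 1170 CPM with pLV-Exo-Wnt5a, which overlapped both. Of the 7 tested, 3 (Mbp, Mag, and Myrf) were lower in Exo than in Con at an unadjusted p under 0.05 and 0 were higher, and 3 (Mbp, Mag, and Myrf) were higher in pLV-Exo-Wnt5a than in Exo and 0 were lower, the order of the groups seen for Dkk3. Mag, a myelin protein, had a log2FC of -0.67 (Q = 0.265, edgeR) in the first comparison and 0.71 (Q = 0.149, edgeR) in the second, and Mbp, myelin basic protein, had -0.44 (Q = 0.265, edgeR) and 0.57 (Q = 0.161, edgeR). The 8 neural stem and progenitor markers summed to 2720 to 3180 CPM with Exo, 3190 to 3450 CPM in Con, and 3100 to 4050 CPM with pLV-Exo-Wnt5a. At an unadjusted p under 0.05, 3 of them were lower in Exo than in Con and 0 higher (median log2FC -0.121), and 2 were higher in pLV-Exo-Wnt5a than in Exo and 0 lower (median 0.056). In this sum Vim, an intermediate filament gene of progenitors and astrocytes, rose by 0.62 on the log2 scale in pLV-Exo-Wnt5a against Exo (Q = 0.0389, edgeR), a call that was lost on dropping any of 4 of the 6 libraries (Q = 0.0755 to 0.268, edgeR), whereas Sox2 and Hes5, transcription factors of neural progenitors, had -0.10 (Q = 0.822, edgeR) and -0.09 (Q = 0.535, edgeR). The astrocyte markers in sum were at 4900 to 4960 CPM with Exo, 4990 to 6120 CPM in Con, and 6560 to 6910 CPM with pLV-Exo-Wnt5a. Most of the list did not follow this sum. For Exo against Con 5 of the 8 were higher, 2 of them (Aqp4 and Gja1) at an unadjusted p under 0.05, where 1 (Aldh1l1) was lower, and the median log2FC was 0.141. Gfap, the astrocyte filament gene, had a log2FC of -0.19 (Q = 0.438, edgeR) in that comparison. It rose by 0.86 on the log2 scale in pLV-Exo-Wnt5a against Exo (Q = 3.36e-05, edgeR). In this second comparison 5 of the 8 astrocyte markers were lower, 3 of them (Slc1a3, Slc1a2, and Gja1) at an unadjusted p under 0.05, and the median log2FC of the list was -0.163. At that p 2 were higher, Gfap and Aldh1l1 (log2FC 0.22, Q = 0.394, edgeR), and Aldh1l1 had -0.31 in the first comparison (Q = 0.268, edgeR). The ependymal and choroid plexus markers summed to 34.8 to 38.8 CPM with Exo and 45.4 to 63.9 CPM with pLV-Exo-Wnt5a. Unlike for Dkk3, the Con sums, 35.1 to 44.4 CPM, overlapped Exo and lay below pLV-Exo-Wnt5a. Only Foxj1 of this list was tested against Exo, with a log2FC of -0.09 for Exo against Con (Q = 0.695, edgeR) and 0.58 for pLV-Exo-Wnt5a against Exo (Q = 0.0451, edgeR). The part of any of these cells in the values of Dkk3 was not tested.

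Dcx, a gene of young neurons, was highest in the Exo group, as Tcf7l2 was. Its log2FC was 0.56 for Exo against Con (Q = 0.275, edgeR), and it fell by 0.60 on the log2 scale in pLV-Exo-Wnt5a against Exo (Q = 0.0113, edgeR). Con library 1 had 1945 counts of Dcx, below the 2957 and 3216 of Con libraries 2 and 3, and Map2, Syt1, and Snap25 were likewise lowest in that library. Without it the log2FC of Dcx for Exo against Con was 0.34 (Q = 0.274, edgeR), and without Con library 3 it was 0.80 (Q = 0.0324, edgeR). For pLV-Exo-Wnt5a against Exo, the call of Dcx was lost without Exo library 2 (Q = 0.113, edgeR) or pLV-Exo-Wnt5a library 1 (Q = 0.051, edgeR). Of the 8 neuronal markers, 6 were higher in Exo than in Con at an unadjusted p under 0.05 and 0 were lower, whereas 3 were lower in pLV-Exo-Wnt5a than in Exo and 0 were higher. The list as a whole did not follow Tcf7l2. Its median log2FC was -0.052 for pLV-Exo-Wnt5a against Exo. For pLV-Exo-Wnt5a against Con, 3 markers were still higher at an unadjusted p under 0.05 and 0 were lower (median log2FC 0.155), where Tcf7l2 had 0.06. The 6 became 5 without Con library 1 and 3 without Exo library 2. Their summed level did not separate the groups, at 2810 to 2910 CPM in Con, 2790 to 3290 CPM in Exo, and 2610 to 3340 CPM in pLV-Exo-Wnt5a. The part of neuronal cells in the values of Tcf7l2 was not tested.

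**Figure D3:**
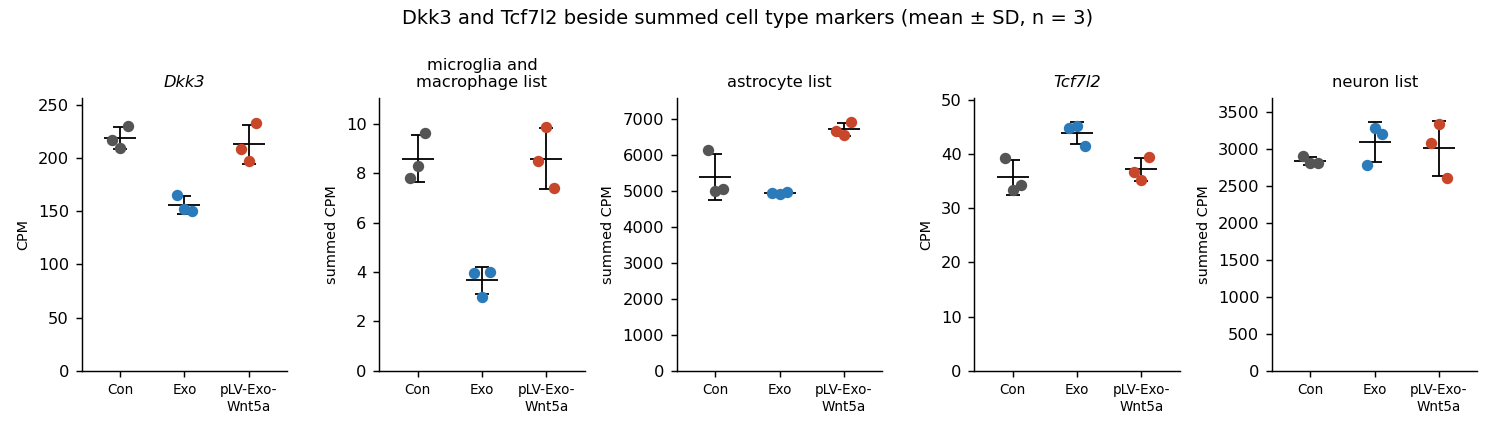
Dkk3 and Tcf7l2 in CPM beside the summed CPM of the marker lists of microglia and macrophages, astrocytes, and neurons, for the 9 libraries (points) with mean and SD (n = 3), axes from 0. The microglia list is lowest in the 3 Exo libraries, at 3.01 to 3.99, like Dkk3, whereas the summed neuron list overlaps in all 3 groups.

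The rest of the pathway was read from 7 lists of 112 genes that hold none of the 10, of which 88 were tested in each comparison. For Exo against Con, 7 were higher and 12 lower at an unadjusted p under 0.05 and 0 were DEGs, with a median log2FC of -0.060. For pLV-Exo-Wnt5a against Exo, 10 were higher and 7 lower, 1 was a DEG, and the median was 0.033. For pLV-Exo-Wnt5a against Con, 4 were higher and 7 lower, 0 were DEGs, and the median was -0.010. In shares these are 21.6%, 19.3%, and 12.5%, beside the 14.9%, 12%, and 8.35% of all genes given above.

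Among the 19 Wnt ligand genes, of which 9 were tested in the first 2 comparisons, Wnt4 was lower and Wnt5b higher in pLV-Exo-Wnt5a than in Exo at an unadjusted p under 0.05. Wnt4 was measured at 6.07, 5.42, and 6.63 CPM in the Con libraries, at 8.12, 7.30, and 8.86 CPM in the Exo libraries, and at 5.66, 6.14, and 4.65 CPM in the pLV-Exo-Wnt5a libraries. Its Exo values lay above the other 6, with a log2FC of 0.42 against Con (Q = 0.293, edgeR) and of -0.55 for pLV-Exo-Wnt5a against Exo (Q = 0.168, edgeR). Wnt5b, a close relative of Wnt5a, was higher in pLV-Exo-Wnt5a than in Exo by a log2FC of 0.70 (Q = 0.0717, edgeR), with values of 20.6, 18.9, and 28.3 CPM against 13.1, 14.4, and 14.5 CPM. Its Con values, 21.5, 14.2, and 15.6 CPM, overlapped both other groups, and pLV-Exo-Wnt5a against Con gave 0.40 (Q = 0.601, edgeR). Wnt7b, a ligand of canonical signalling in the nervous system, was lower in Exo than in Con, with a log2FC of -0.25 (Q = 0.289, edgeR). Wnt5a itself lay at 21.1, 26.1, and 29.6 CPM in Con, at 33.2, 25.7, and 27.7 CPM in Exo, and at 30.8, 24.3, and 31.7 CPM in pLV-Exo-Wnt5a. The 3 groups overlapped for Wnt5a, and its log2FC between the last 2 groups had an interval from -0.26 to 0.29.

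All 16 Wnt receptor and co-receptor genes were tested. For pLV-Exo-Wnt5a against Exo, 0 had an unadjusted p under 0.05. For Exo against Con, 2 were lower, Fzd8 (log2FC -0.52, Q = 0.265) and Fzd2 (log2FC -0.42, Q = 0.265, edgeR for both), and 3 were lower for pLV-Exo-Wnt5a against Con, these same 2 and Fzd5 (log2FC -0.41). Of the R-spondins and the other Lgr receptors, whose ligand and receptor pairs protect Frizzled from Rnf43 and Znrf3, 5 of 6 were tested and 0 had an unadjusted p under 0.05 in any comparison. Their median log2FC for Exo against Con was 0.413, and Lgr4, a receptor of the same family as Lgr5, had a log2FC of 0.50 in this comparison with an interval from -0.01 to 1.01.

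Among the 16 secreted and membrane inhibitors, Apcdd1 was the 1 DEG. Apcdd1, a membrane protein that binds Wnt and LRP and is itself a Wnt target, had 82.0, 67.1, and 68.4 CPM in the Con libraries, 59.9, 51.7, and 55.4 CPM in the Exo libraries, and 87.6, 72.9, and 106 CPM in the pLV-Exo-Wnt5a libraries. The 3 Exo libraries were the 3 lowest of the 9, as for Dkk3. Its log2FC was -0.38 for Exo against Con (Q = 0.265, edgeR), and it rose by 0.68 on the log2 scale for pLV-Exo-Wnt5a against Exo (standard error 0.12, Q = 0.0369, edgeR). Sfrp4, a secreted Wnt binder, was higher in pLV-Exo-Wnt5a than in Exo by a log2FC of 1.02 (Q = 0.305, edgeR) at no more than 1.94 CPM. Sfrp1, another secreted Wnt binder, was lower than in Con in both other groups, with log2FC values of -0.25 in Exo (Q = 0.277, edgeR) and -0.22 in pLV-Exo-Wnt5a (Q = 0.586, edgeR). Sostdc1, an inhibitor that binds LRP, was higher than in Con in both, with 1.10 (Q = 0.273, edgeR) and 0.96 (Q = 0.587, edgeR), at no more than 1.31 CPM. Draxin, which also acts on LRP, was lower in pLV-Exo-Wnt5a than in Con, with a log2FC of -0.20 (Q = 0.587, edgeR). Its 3 Exo values also lay below the 3 Con values (log2FC -0.16, Q = 0.337, edgeR), and pLV-Exo-Wnt5a against Exo gave -0.03. Dkk1 had at most 1 count in any library.

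In the destruction complex, Apc and Gsk3b had their highest mean in the Exo group, as Tcf7l2 did. Apc, the tumour suppressor that anchors the complex, had 31.0, 31.8, and 34.0 CPM in Con, 45.3, 36.8, and 40.3 CPM in Exo, and 33.2, 27.3, and 27.0 CPM in pLV-Exo-Wnt5a. Its Exo values lay above the other 6, with a log2FC of 0.34 against Con (Q = 0.265, edgeR) and of -0.48 for pLV-Exo-Wnt5a against Exo (Q = 0.0833, edgeR). Gsk3b, the kinase that marks beta-catenin for destruction, gave 0.32 and -0.17 in the same comparisons (Q = 0.304 and 0.410, edgeR). Dvl2, one of the Dishevelled proteins, was lower than in Con in the Exo group (-0.25) and in the pLV-Exo-Wnt5a group (-0.24). Ctnnb1, which encodes beta-catenin, lay between 741 and 881 CPM in all 9 libraries, and its log2FC for pLV-Exo-Wnt5a against Exo had an interval from -0.12 to 0.15.

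Of the nuclear cofactors, 13 of 14 were tested. Tcf7l1, the family member best known as a repressor, had the opposite order to Tcf7l2, with a log2FC of -0.27 for Exo against Con (Q = 0.293, edgeR) and 0.22 for pLV-Exo-Wnt5a against Exo (Q = 0.225, edgeR). Tle3, a Groucho corepressor, gave -0.20 and 0.24 in these comparisons, its relative Tle4 gave -0.23 in the second, and the coactivator Bcl9l gave -0.21 in the first.

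Other genes known as beta-catenin targets in some tissue were 24, of which 16 or 17 were tested. For pLV-Exo-Wnt5a against Exo, 4 were higher and 2 lower at an unadjusted p under 0.05. Cd44, an adhesion receptor also abundant in astrocyte precursors, had 12.6, 11.6, and 15.7 CPM in Con, 18.1, 9.76, and 13.0 CPM in Exo, and 24.8, 17.3, and 31.9 CPM in pLV-Exo-Wnt5a. Its pLV-Exo-Wnt5a values lay above all Con values but overlapped the Exo values, with a log2FC of 0.89 against Con (Q = 0.263, edgeR) and of 0.87 against Exo (Q = 0.163, edgeR). Ccnd1, the G1 cyclin, gave 0.40 against both groups (Q = 0.440 against Con and 0.166 against Exo, edgeR). Ephb2, an ephrin receptor, was lower in Exo than in Con, with a log2FC of -0.32 (Q = 0.265, edgeR), and higher in pLV-Exo-Wnt5a than in Exo, with 0.25 (Q = 0.0888, edgeR). Sp8, a relative of Sp5, gave 0.50 for Exo against Con, and Ephb3 gave -0.36 for pLV-Exo-Wnt5a against Con. Myc was not among those at an unadjusted p under 0.05 in any comparison, and its interval for pLV-Exo-Wnt5a against Exo was -0.24 to 0.08.

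**Figure D4:**
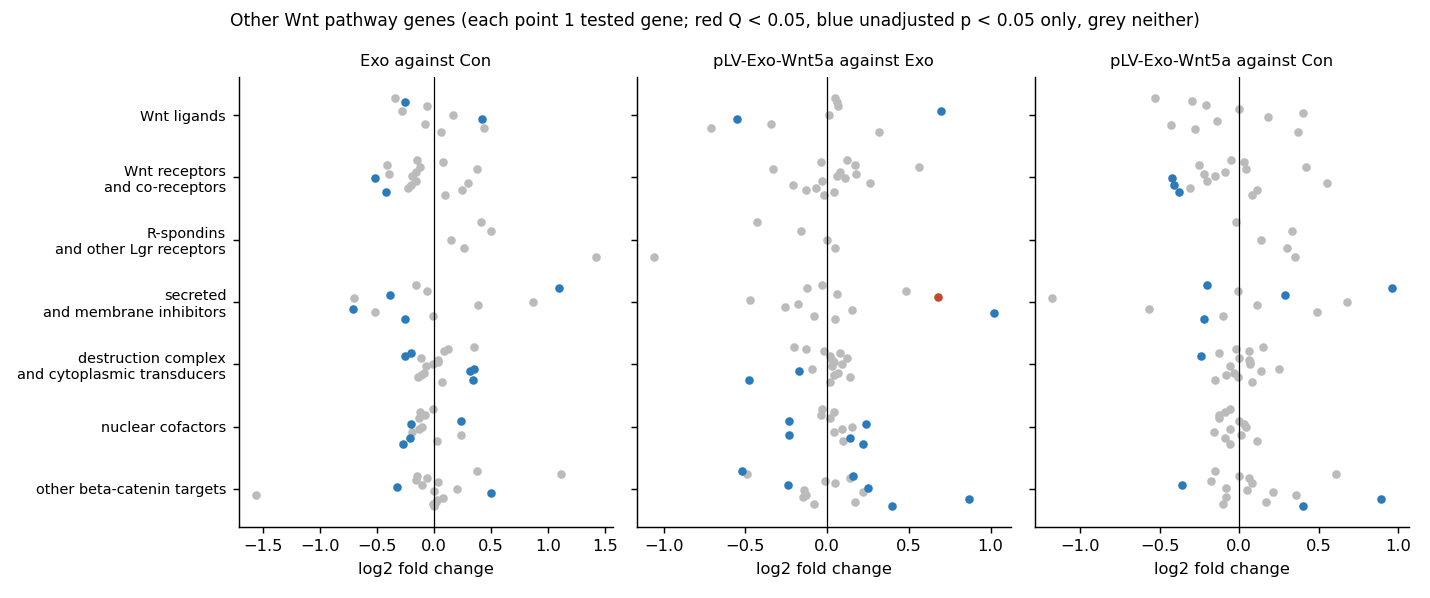
Log2 fold changes of the tested genes of 7 Wnt pathway lists (rows) in the 3 comparisons (panels), 1 point for each gene, coloured by Q or unadjusted p under 0.05. The 1 red point is Apcdd1 at 0.68 in the middle panel, and every receptor in that panel is grey.

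Across the 9 libraries the correlations between pairs of the 8 tested members had both signs. No such values over pairs of all genes were computed to set beside them. As a description over libraries that share their groups and depth, Pearson's r of log2 CPM over the 28 pairs of members had a median of 0.01 and ran from -0.73 (Tcf7l2 and Dkk3) to 0.77 (Axin2 and Dkk3), with 15 pairs above 0. Tcf7 and Tcf7l2 gave 0.75, and Axin2 and Dkk3 stayed between 0.67 and 0.90 when any 1 library was left out. After the group means were taken away, the median of the pairs was 0.49, Axin2 and Znrf3 gave 0.91, and Axin2 and Dkk3 gave 0.85. Tcf7l2 and Dkk3 then gave 0.50, the opposite sign to their value over the groups, and Tcf7 and Tcf7l2 gave 0.30. The 3 genes most like Axin2 over the 9 libraries, of the 15458 genes kept on all 3 groups, were Iqgap1 (r = 0.958), a scaffold of the cytoskeleton, Rnf213 (r = 0.948), a large ubiquitin ligase, and Ttc39aos1 (r = 0.935). Lef1 was not among the genes kept, so no such genes are given for it.

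**Figure D5:**
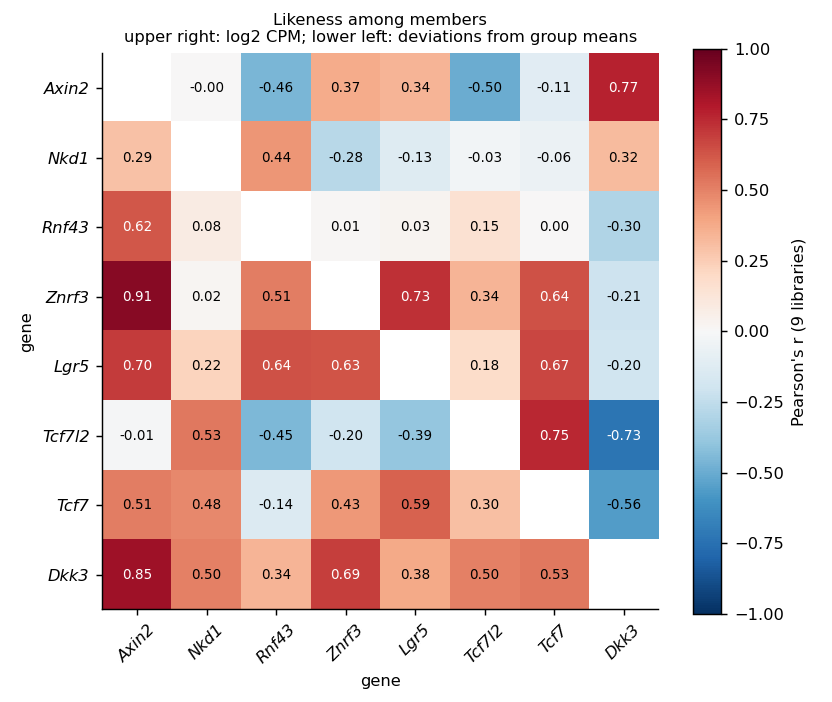
Pearson's r between the log2 CPM of each pair of the 8 members over 9 libraries (upper right) and between their deviations from the group means (lower left), on a colour scale from -1 to 1. Values of both signs stand in the upper right (median 0.01), and most of the lower left is above 0 (median 0.49).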

How the data were processed

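All 9 RNA-seq libraries of the series were used, 3 from each group, grouped by the sample labels. For each gene the authors deposited a whole-number count that had not been normalized, after low-quality reads were removed. The paper's methods name HISAT2 and the submitters' processing notes name Bowtie2, RSEM 1.3.1, and DESeq2 1.4.5. Which of these made the counts, the genome build, the annotation, and gene lengths are not given in the sources used here, so levels were not compared between genes. The number of count columns without a sample was 0.

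For each comparison, the deposited counts of its 6 libraries were filtered with filterByExpr (minimum count 10) and scaled by TMM. The whole table was then fitted in edgeR 4.0.16 under R 4.3.3 and its quasi-likelihood test applied, with Benjamini-Hochberg adjustment (Q, threshold 0.05). Standard errors and intervals came from the test statistic. CPM used TMM over the 9 libraries, and log2 CPM a prior count of 2. The members and lists were chosen with earlier results of these data known. Genes named are the 10 members, Wnt5a, from each Wnt list every DEG and up to 3 genes per comparison with the smallest unadjusted p, the 3 genes most like Axin2, and markers of a cell type whose summed level moved with a member. Genes named outside this rule (Ctnnb1, Myc, Lgr4, Dkk1, Dcx, Map2, Syt1, Snap25, Vim, Sox2, Hes5, Lhx2, Otx1, Six3, Emx2, Emx1) were chosen after their values were seen. Alternatives were RLE scaling, no filter, a filter of 10 counts in each library, DESeq2 1.42.0, 1 edgeR fit of the 9 libraries, the replicate number as a block, a fold change limit, and dropping each library in turn (for marker genes, chosen after seeing the data). The steps were tested on simulated data. Promoters were RefSeq windows of GRCr8, matched by gene symbol. Member levels were also computed from the library totals, without TMM. Depth put 3 counts at 0.0742 to 0.0916 CPM. The value of 1 gene is not reported here.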

Additional observations from a re-analysis of the deposited data

How the results depend on the processing

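With 3 libraries a group, small changes, genes near 3 counts (Lef1 and Sp5), and changes of Lgr5 at 6 to 25 counts could not be resolved, and replicates may be technical. The levels of the 10 members moved by less than the SD of their group when CPM was taken from the library totals, the 1 alternative run for levels. Of the fold changes of the 8 tested members under the alternatives, 271 kept their direction and their side of the threshold, while 4 came to pass it and 4 ceased to, all of Dkk3. The other 6 turned direction when 1 library was dropped. These were Rnf43 for Exo against Con (range -0.122 to 0.040, the highest on dropping Con library 2), and, for pLV-Exo-Wnt5a against Exo, Nkd1 (-0.281 to 0.112, dropping pLV-Exo-Wnt5a library 2), Znrf3 (-0.103 to 0.015, dropping Exo library 1, and 0.005 dropping pLV-Exo-Wnt5a library 2), and Lgr5 (-0.665 to 0.014, dropping Exo library 1). The last was Dkk3 for pLV-Exo-Wnt5a against Con (-0.111 to 0.013, dropping pLV-Exo-Wnt5a library 2). For Exo against Con, the members that were DEGs numbered 1 with no filter, 1 with DESeq2, and 0 to 1 on dropping a library (1 for Con library 1 or 3). For pLV-Exo-Wnt5a against Exo they numbered 0 with the fold change limit and 0 to 1 on dropping a library (0 for Exo library 2 or 3, or for library 1 or 3 of pLV-Exo-Wnt5a). The members at an unadjusted p under 0.05 numbered 0 with the fold change limit in each comparison. On dropping a library they numbered 1 to 3 for Exo against Con (1 for Con library 2), 2 to 3 for pLV-Exo-Wnt5a against Exo (2 for Exo library 3 or pLV-Exo-Wnt5a library 1), and 0 to 2 for pLV-Exo-Wnt5a against Con (0 for Con library 2 or for library 1 or 2 of pLV-Exo-Wnt5a, and 2 for its library 3). The single DEG of Exo against Con over all genes became 446 with no filter, 211 with DESeq2, 5 in the edgeR fit of the 9 libraries, and 0 to 371 on dropping a library (371 for Con library 3, 7 for Con library 1, and 0 for Exo library 1 or 3). The 66 DEGs of pLV-Exo-Wnt5a against Exo became 397 with no filter, 411 with DESeq2, 24 with the fold change limit, and 19 to 96 on dropping a library (19 for Exo library 2, 27 for library 1 and 42 for library 3 of pLV-Exo-Wnt5a). The 13 DEGs of pLV-Exo-Wnt5a against Con became 86 with no filter, 72 with DESeq2, and 1 to 18 on dropping a library (1 for Con library 2, and 3, 2, and 1 for pLV-Exo-Wnt5a libraries 1, 2, and 3). The Wnt list genes at an unadjusted p under 0.05, recounted by a choice made after seeing the data, were then 11 to 28 for Exo against Con (11 for Exo library 1 and 12 for Exo library 2) and 6 to 16 for pLV-Exo-Wnt5a against Con (7 for library 1 and 6 for library 3 of pLV-Exo-Wnt5a). On dropping a library, also chosen after seeing the data, Dcx for pLV-Exo-Wnt5a against Con ran from -0.26 to 0.19, turning direction without Con library 3 (0.19) or pLV-Exo-Wnt5a library 3 (0.02). Among same-numbered libraries of different groups, deviations from the group means correlated between -0.201 and 0.0634. Differently numbered libraries were not compared, so these values cannot tell whether same-numbered libraries share more than a number. With the replicate block the DEGs were 0, 116, and 38 in the 3 comparisons, the Wnt list genes for Exo against Con were 10, and no member gained or lost Q under 0.05. Of the members at an unadjusted p under 0.05, Tcf7 was then lost for Exo against Con, and for pLV-Exo-Wnt5a against Con Rnf43 was lost and Nkd1 gained. The median r over pairs of members was 0.488 with deviations from the group means, against -0.058 to 0.170 on dropping a library. The cause of these shifts was not tested.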
